A study of Mus musculus with 6 samples.

Results

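The genes described here are 34 genes of glycolysis and of the cellular response to low oxygen, measured in haematopoietic stem cells (HSC), the rare bone marrow cells that sustain blood formation. They are the glycolytic enzymes and glucose transporters, the kinases that hold pyruvate dehydrogenase inactive, the subunits and regulators of the hypoxia-inducible factor (Hif), and a set of its targets. Members were found through the array annotation, as every probe set that names exactly 1 of the 34 genes, which gave 75 probe sets of 45101 in the table and 31 genes of 18194. Of these, 30 genes with 72 probe sets entered the test. Gapdh is named alone by 3 control probe sets of the array, which are described without a test. Bnip3l, Eno1 and Gpi1 have no probe set that names them alone and were not analysed here.

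Lig4mut mice were set against wild-type (WT) littermates, both born from crosses between Lig4mut/+ parents, at 6 to 8 weeks of age. Lig4 encodes DNA ligase IV, which joins the ends of broken DNA. The nature of the mutation, and whether a replicate is 1 mouse or several, are not given in the sources used here. HSC were sorted as CD150+ CD48- KSL cells, amplified with the Ovation Pico WTA kit and hybridised to 1-colour Affymetrix arrays, with 3 arrays of Lig4mut and 3 of WT HSC. Values are log2 expression values, quantile normalized over the 6 arrays, with a floor of 3 on the deposited scale. The number of arrays limits the precision, and in sorted bulk RNA fewer cells of a type and less RNA per cell cannot be told apart.

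Glycolysis splits glucose into pyruvate in the cytosol, and lactate dehydrogenase turns pyruvate into lactate where it is not passed on to the mitochondria. Hif is a pair of an oxygen-labile alpha subunit and the stable partner Arnt. In normal oxygen the Egln prolyl hydroxylases mark the alpha subunit for Vhl, which directs its destruction, and in low oxygen Hif binds promoters and raises glycolytic genes, Pdk1, Bnip3, Vegfa and others. HSC reside in a marrow of low oxygen, are known to rely on glycolysis, and lose quiescence in mice without Hif1a.

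The core of the site that Hif binds reads ACGTG or GCGTG on either strand. Promoters are shown for Bnip3, Pdk1 and Pdk3, whose values were lower in every Lig4mut array, and for Ldha, whose values were higher in every Lig4mut array. Each sequence is the 250 bases before the most upstream RefSeq start in build GRCm38.p6, written 5′ to 3′ in the direction of the gene, with both motifs in capitals on either strand.
Bnip3, chr7:138909507-138909756, minus strand: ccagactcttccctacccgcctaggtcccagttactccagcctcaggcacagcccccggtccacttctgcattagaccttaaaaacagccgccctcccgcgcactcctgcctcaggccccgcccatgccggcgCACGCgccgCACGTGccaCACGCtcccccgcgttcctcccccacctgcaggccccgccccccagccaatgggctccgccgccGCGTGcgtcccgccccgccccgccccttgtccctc
Pdk1, chr2:71872974-71873223, plus strand: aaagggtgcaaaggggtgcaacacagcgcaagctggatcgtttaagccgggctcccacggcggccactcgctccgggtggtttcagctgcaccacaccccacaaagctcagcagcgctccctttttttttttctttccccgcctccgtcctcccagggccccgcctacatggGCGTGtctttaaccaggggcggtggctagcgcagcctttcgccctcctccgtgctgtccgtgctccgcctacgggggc
Pdk3, chrX:93832151-93832400, minus strand: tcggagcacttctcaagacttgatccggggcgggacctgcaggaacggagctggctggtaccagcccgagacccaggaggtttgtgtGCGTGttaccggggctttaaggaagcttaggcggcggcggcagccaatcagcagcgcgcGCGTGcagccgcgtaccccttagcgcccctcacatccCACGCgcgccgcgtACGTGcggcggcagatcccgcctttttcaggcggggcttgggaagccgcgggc
Ldha, chr7:46845554-46845803, plus strand: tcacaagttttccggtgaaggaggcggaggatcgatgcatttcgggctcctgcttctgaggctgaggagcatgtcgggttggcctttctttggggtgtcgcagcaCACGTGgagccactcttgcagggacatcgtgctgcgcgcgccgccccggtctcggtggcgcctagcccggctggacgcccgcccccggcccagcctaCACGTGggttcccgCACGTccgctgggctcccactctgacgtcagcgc
The Bnip3 window held ACGTG 2 times and GCGTG 3 times, the Pdk3 window 1 and 3 times, the Pdk1 window 0 and 1 times and the Ldha window 5 and 0 times. A palindromic CACGTG holds ACGTG once per strand and so counts as 2. Ndrg1, Epas1 and Slc2a3 are not in the promoter table. The 30 members that are include Gapdh, Eno1 and Gpi1, which were not tested, and 23 of them (76.7%) held either motif, against 43.9% of 17491 protein-coding genes. Both motifs hold a CpG, and the median GC content of the windows was 62.2% for the members and 55.2% for the protein-coding genes. The members were also chosen in part as Hif targets, so the share of them with a motif is not independent of that choice. A match is a string of letters and was not tested as a site.

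No member passed the threshold over all genes. At an adjusted p under 0.05 by limma there were 0 members of 30, beside 0.011% of the 18193 genes tested. At an unadjusted p under 0.05 there was 1 member with higher values in Lig4mut HSC, Ndrg1, and there were 3 with lower values, Bnip3, Pdk1 and Pdk3. Of all genes 15.5% were higher and 4.18% lower at that level. The 3 Lig4mut arrays lay above the 3 WT arrays for 2 members, where 21% of all genes did so, and below them for 3, where 5.65% did so. For 25 of the 30 members the genotypes overlapped. In all, 13 of 30 members had a positive difference, Lig4mut minus WT, beside 62.9% of all genes, and the median difference was -0.03 for the members and 0.18 for all genes (log2). With the dimmest genes left out, those below the 40th percentile, the median was 0.03 for the 10916 genes left and -0.03 for the 29 members left, so the gap to all genes was -0.06 in place of -0.21. That filter left 973 genes higher and 476 lower at an unadjusted p under 0.05. With arrays centred on their medians 19 of 30 differences were positive, and with the other scalings 13.

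**Figure D1:**
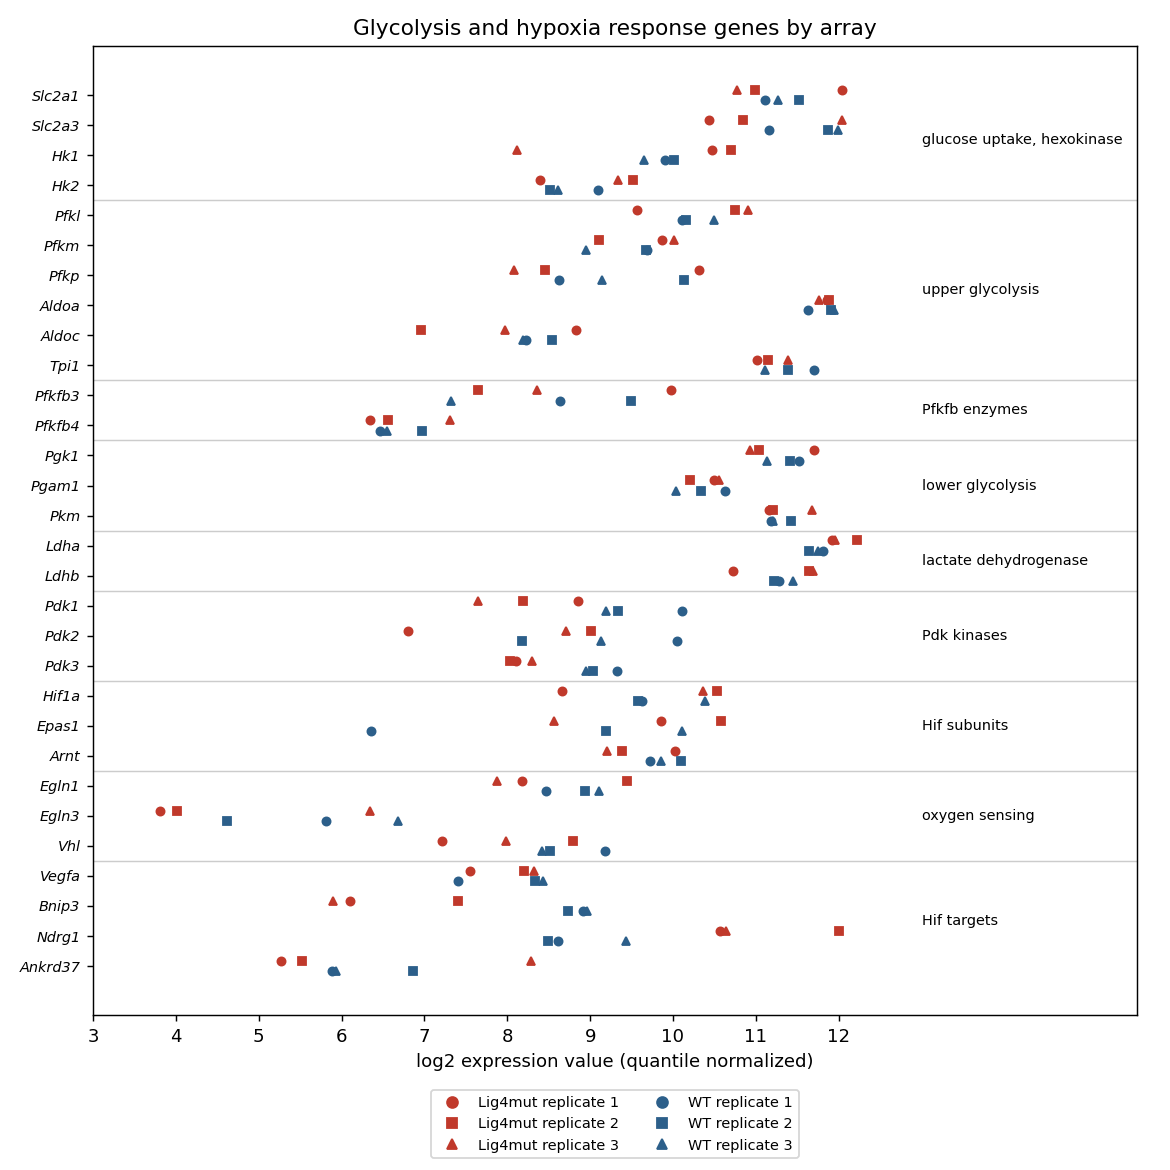
Log2 expression value (x axis) of the 30 tested genes (rows, grouped by role) on each array, with Lig4mut in red above WT in blue and a symbol per replicate. Bnip3, Pdk1 and Pdk3 have all red points left of the blue ones, Ndrg1 and Ldha all red points right of them, and in the other 25 rows the colours overlap.

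The arrays as a whole differed between genotypes. Deposited array medians were 5.97 to 6.05 in Lig4mut and 6.29 to 6.34 in WT. The quantile step sets them equal and moves the median of all genes: the deposited values gave 1221 genes higher and 990 lower at an unadjusted p under 0.05, in place of 2826 and 760, with a median difference of 0.02 in place of 0.18. Arrays centred on their medians gave 3352 and 473, and cyclic loess gave 1578 and 798. Lig4mut arrays also scattered more. The SD between Lig4mut arrays exceeded that between WT arrays for 24 of 30 members (80%) and for 69.9% of all genes, and the median SD of a member was 0.70 in Lig4mut and 0.30 in WT. The defining HSC genes were present on every array, with a mean level over 10 measured markers of 9.79 to 10.51 in Lig4mut and 10.65 to 10.85 in WT. Marker lists of macrophages and dendritic cells (7.92 to 8.36 in Lig4mut and 7.11 to 7.49 in WT) and of B cells (6.15 to 6.97 in Lig4mut and 5.95 to 6.01 in WT) likewise did not overlap between genotypes. Granulocyte markers were high on Lig4mut replicate 2 (10.79, with 6.16 and 6.81 on the other Lig4mut arrays and 7.48 to 8.45 in WT). Erythroid (6.47 to 6.68 in Lig4mut and 6.57 to 6.67 in WT), megakaryocyte (7.46 to 8.34 and, in WT, 7.34 to 8.05) and T cell markers (5.53 to 6.18 and, in WT, 5.04 to 5.56) overlapped, as did immediate early genes, which dissociation can raise (9.48 to 10.49 and, in WT, 10.03 to 11.12). At an unadjusted p under 0.05 by limma, 5 of 9 macrophage and dendritic cell markers, 4 of 9 B cell markers and 2 of 7 T cell markers were higher, and 2 of 10 HSC markers and 2 of 12 immediate early genes lower, beside 15.5% of all genes higher and 4.18% lower. Of the rest, 1 of 8 endothelial markers was higher, 1 of 9 erythroid markers was higher and 1 lower, and none of the granulocyte or megakaryocyte markers was past that level. The Y-linked genes were low and Xist high on Lig4mut replicate 2 and WT replicate 3, so each genotype held 1 array of that pattern. The part of these differences in the results was not tested, beyond leaving out each array and fitting the Xist and Y-linked pattern as a covariate.

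Glucose enters HSC through facilitative transporters and is trapped by hexokinase. The tested probe sets of all 4 genes of this step overlapped between genotypes. Slc2a1, the widespread transporter Glut1, had log2 values of 12.04, 10.99 and 10.78 in Lig4mut HSC, against 11.11, 11.52 and 11.27 in WT HSC. Lig4mut replicate 1 was the highest of the 6 arrays and Lig4mut replicate 3 the lowest, so the genotypes overlapped (difference -0.03 ± 0.37 SE, limma, adjusted p = 0.986). Its 3 probe sets all had negative differences, the lowest of them -0.71. Slc2a3, the high-affinity transporter Glut3, averaged 11.11 ± 0.83 in Lig4mut and 11.68 ± 0.45 in WT (SD, n = 3 each), with overlapping arrays (difference -0.57 ± 0.49 SE, limma, adjusted p = 0.571), and 1 of its 4 probe sets went the other way. That set was higher in all Lig4mut arrays, by 0.94 ± 0.30 SE (limma, unadjusted p = 0.0261, adjusted p = 0.220 over all probe sets).

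Hk2, the inducible hexokinase and a Hif target, had values of 8.40, 9.52 and 9.34 in Lig4mut, against 9.10, 8.52 and 8.61 in WT. Lig4mut replicates 2 and 3 lay above all WT arrays and Lig4mut replicate 1 below them (difference 0.34 ± 0.36 SE, limma, adjusted p = 0.642). Hk1, the constitutive hexokinase, had 10.47, 10.70 and 8.12 in Lig4mut, against 9.90, 10.01 and 9.65 in WT. Here the single low array, Lig4mut replicate 3, decided the value: the difference was -0.09 with it and 0.73 without it. The other Hk1 probe set lay lower in all Lig4mut arrays (difference -0.50 ± 0.21 SE, limma, adjusted p = 0.310 over all probe sets).

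None of the glycolytic enzymes among the members was at an unadjusted p under 0.05 by limma in its tested probe set, the one with the highest mean. Other probe sets of Pfkl, given further below, were past that level. Of 11 tested genes of upper glycolysis, lower glycolysis and lactate dehydrogenase, 7 had positive and 4 negative differences, all between -0.40 and 0.30, at most 1.32-fold, and the 95% interval of each held 0. With arrays centred on their medians 9 of the 11 were positive, with values up to 0.61, and with the other scalings 7. Without Lig4mut replicate 1 the range was -1.03 (Pfkp) to 0.57 (Pfkl, limma, unadjusted p = 0.0355). In upper glycolysis, Aldoa, the main aldolase, had the tightest interval. Its values were 11.85, 11.88 and 11.76 in Lig4mut, against 11.63, 11.90 and 11.95 in WT, and the difference of 0.01 had an interval of -0.36 to 0.37. The 5 Aldoa probe sets, all of a class that shares probes with further transcripts, differed by -0.22 to 0.54. The set at 0.54 was higher in all Lig4mut arrays (limma, unadjusted p = 0.0519). Among the phosphofructokinase genes, which encode the committed step, Pfkm differed by 0.23, Pfkl by 0.15 and Pfkp by -0.35. The spread between Lig4mut arrays was wide for Pfkp, at 8.08 to 10.32 in Lig4mut against 8.63 to 10.14 in WT, and the SE of its difference was 0.73. The other probe sets of Pfkp differed by -1.47 and 0.89, both with overlapping genotypes. Tpi1, triose phosphate isomerase, differed by -0.22 and Aldoc, an aldolase best known from brain, by -0.40. Aldoc was at 0.08 without Lig4mut replicate 2 and at -0.85 without Lig4mut replicate 1.

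Pfkfb3 and Pfkfb4 encode the bifunctional enzymes that make and remove the allosteric activator of phosphofructokinase. Pfkfb3 had values of 9.97, 7.65 and 8.36 in Lig4mut, against 8.63, 9.50 and 7.32 in WT. Both genotypes spanned over 2 log2 units, and the difference of 0.18 had an interval of -1.91 to 2.27. Pfkfb4 ranged from 6.35 to 7.31 in Lig4mut and from 6.46 to 6.97 in WT, and differed by 0.08.

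In lower glycolysis, where the pathway yields ATP, Pgk1, phosphoglycerate kinase, had 11.71, 11.04 and 10.93 in Lig4mut, against 11.52, 11.42 and 11.14 in WT. The highest and the 2 lowest of these values were from Lig4mut arrays (difference -0.13 ± 0.26 SE, limma, adjusted p = 0.816). Its other probe sets, both of the class that shares probes with further transcripts, differed by 0.38 and 0.39. Pkm, pyruvate kinase, had 11.15, 11.21 and 11.67 in Lig4mut, against 11.19, 11.42 and 11.21 in WT, which also overlapped (difference 0.07 ± 0.19 SE). Pgam1, phosphoglycerate mutase, differed by 0.08. The Gapdh control probe sets read the transcript at 3 places. The 3′ set averaged 13.02 ± 0.02 in Lig4mut and 12.84 ± 0.07 in WT (SD, n = 3 each), with all Lig4mut arrays higher. The middle set averaged 12.07 ± 0.08 in Lig4mut and 12.01 ± 0.17 in WT, and the 5′ set 12.03 ± 0.17 in Lig4mut and 11.96 ± 0.04 in WT, both with overlapping genotypes. The 3′ value exceeded the 5′ value by 0.89 to 1.17 in Lig4mut and 0.85 to 0.92 in WT, a common gauge of RNA quality on these arrays. For the beta-actin (Actb) controls the 3′ minus 5′ value was 0.09, -0.23 and -0.09 in Lig4mut, against -0.19, -0.41 and -0.29 in WT. The part of RNA quality in the results was not tested.

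Lactate dehydrogenase sits at the exit of the pathway. Ldha, the muscle-type subunit and a classic Hif target whose promoter above holds 5 ACGTG matches, had 11.92, 12.22 and 11.95 in Lig4mut, against 11.81, 11.64 and 11.75 in WT. All 3 Lig4mut arrays lay above all WT arrays, by a small margin between Lig4mut replicate 1 and WT replicate 1. The difference was 0.30 ± 0.15 SE, 1.23-fold (limma, unadjusted p = 0.0951, adjusted p = 0.337), and 0.20 to 0.35 with any 1 array left out. Relative to the median of all genes it was 0.12. Ldhb, the heart-type subunit, ranged from 10.72 to 11.69 in Lig4mut and from 11.22 to 11.45 in WT. Its probe set with the highest mean differed by 0.03, and the other 3 had negative differences down to -0.57.

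**Figure D2:**
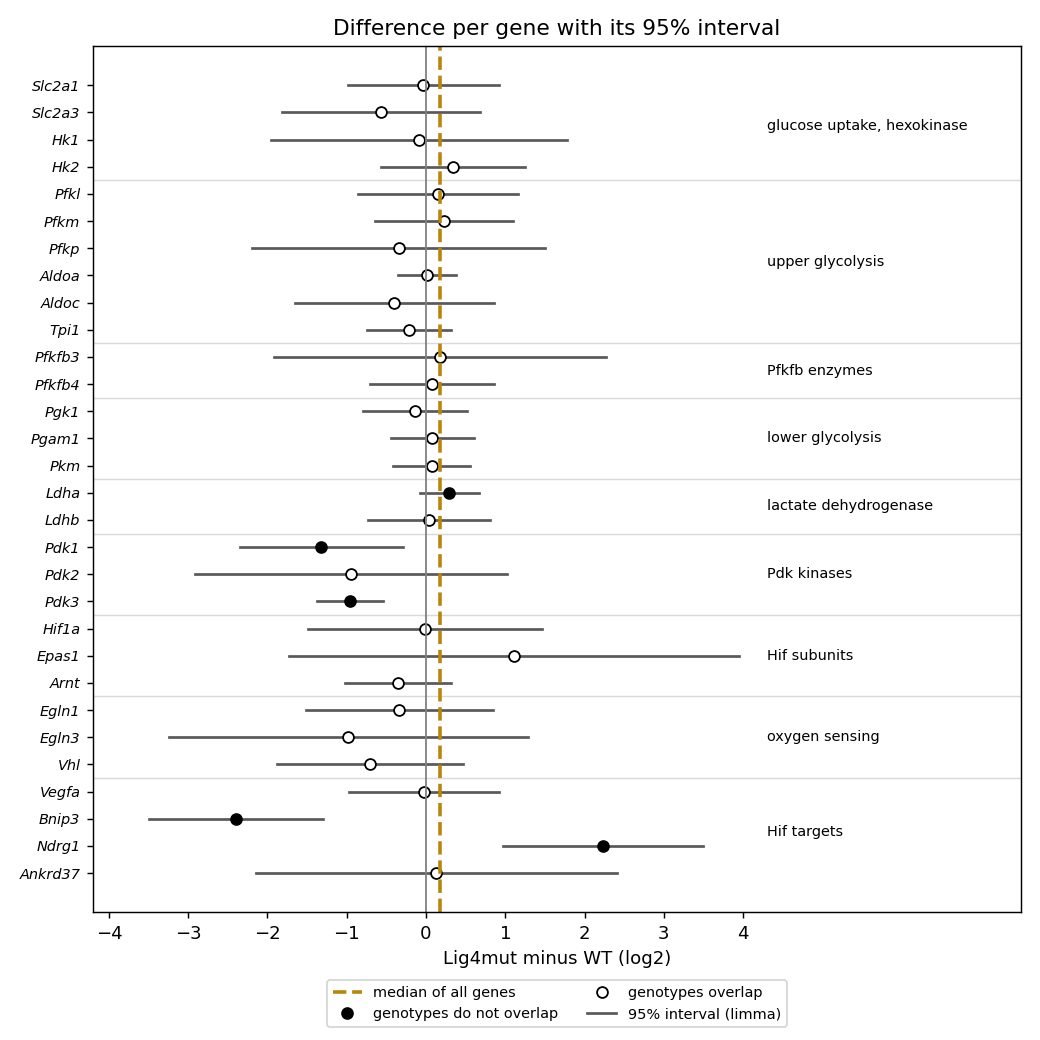
Difference Lig4mut minus WT (x axis, log2) of each of the 30 tested genes (rows, by role) with its 95% interval from limma; filled points mark genes whose genotypes do not overlap and the dashed line is the median of all genes, 0.18. The intervals of Pdk1, Pdk3, Bnip3 and Ndrg1 leave out 0, while those of the glycolytic enzymes cross it.

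Pyruvate dehydrogenase kinases inactivate pyruvate dehydrogenase and so keep pyruvate from the mitochondria. Pdk1, Pdk2 and Pdk3 had lower means in Lig4mut HSC. The 3 genes differed by -1.32 to -0.94 (log2), and 2 of the 3 were at an unadjusted p under 0.05, beside 4.18% of all genes lower at that level. The direction of each was the same under every scaling tried. Pdk1, the kinase induced by Hif, had 8.85, 8.19 and 7.64 in Lig4mut, against 10.10, 9.34 and 9.20 in WT. Every Lig4mut array lay below every WT array, and the difference was -1.32 ± 0.41 SE, 2.50-fold (limma, unadjusted p = 0.0214, adjusted p = 0.186). Leaving out Lig4mut replicate 2 gave an unadjusted p of 0.0583, leaving out Lig4mut replicate 3 gave 0.0551, and leaving out WT replicate 1 gave 0.0601. Pdk1 has 4 probe sets, which disagree. Another 2 had lower means in Lig4mut (-1.90 and -1.12) with overlapping genotypes, and 1 was at 0.47. The mean over the 4 was -0.97 (limma, unadjusted p = 0.0878).

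Pdk3, an X-linked kinase of the same family, had the tightest values of the group, with 8.11, 8.03 and 8.30 in Lig4mut, against 9.33, 9.03 and 8.95 in WT. The genotypes were apart by more than the range within either. The difference was -0.96 ± 0.16 SE, 1.94-fold, with an interval of -1.37 to -0.54 (limma, unadjusted p = 0.00179, adjusted p = 0.130). It stayed between -1.03 and -0.84 with any 1 array left out and was -0.94 with the Xist and Y-linked pattern as a covariate. Pdk3 has 1 probe set. Pdk2, the widely expressed kinase, had 6.81, 9.01 and 8.71 in Lig4mut, against 10.05, 8.17 and 9.14 in WT. Only Lig4mut replicate 1 lay below all WT arrays (difference -0.94 ± 0.78 SE, limma, adjusted p = 0.551), and without it the difference was -0.26. Pdk4, the fourth kinase of the family and no member of the 34, had a positive difference, with 8.27, 5.77 and 3.83 in Lig4mut, against 5.41, 4.47 and 4.29 in WT. Its arrays overlapped (difference 1.24 ± 1.17 SE, with an interval of -1.73 to 4.21). It is named here after its values were seen.

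In their tested probe sets the Hif subunits overlapped between genotypes. Hif1a, the alpha subunit active in HSC, had 8.66, 10.53 and 10.36 in Lig4mut, against 9.63, 9.57 and 10.39 in WT. The values overlapped fully (difference -0.01 ± 0.58 SE, with an interval of -1.49 to 1.46). Its 4 probe sets differed by -1.34 to 0.19. Hif is controlled mainly through the stability of the protein, which arrays do not measure. Arnt, the constant partner, ranged from 9.20 to 10.02 in Lig4mut and from 9.72 to 10.10 in WT (difference -0.36 ± 0.26 SE). All 5 Arnt probe sets had negative differences, and their mean was -0.68 (limma, unadjusted p = 0.0269). In 1 of them all Lig4mut arrays were lower, with 4.54, 5.07 and 4.49 in Lig4mut, against 5.47, 5.64 and 5.43 in WT. Its difference was -0.81 ± 0.20 SE (limma, unadjusted p = 0.00906, adjusted p = 0.158 over all probe sets). In the other Arnt sets the genotypes overlapped.

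Epas1, the alpha subunit Hif-2-alpha named for its place in endothelium, varied widely between arrays, with 9.85, 10.58 and 8.56 in Lig4mut, against 6.36, 9.19 and 10.10 in WT. In this tested probe set WT replicate 1 was far below the other 5 arrays. The difference of 1.11 ± 1.12 SE (limma, adjusted p = 0.628) was 0.02 without that array. The other Epas1 probe set had 9.92, 10.69 and 6.00 in Lig4mut, against 6.22, 8.89 and 8.21 in WT. There Lig4mut replicate 3 was the lowest array (difference 1.10 ± 1.49 SE). Endothelial markers also varied between arrays. Their mean level over 8 markers of 8 was 9.93, 10.20 and 8.73 in Lig4mut and 7.69, 8.99 and 9.37 in WT, none at the floor. Stab2, a receptor of sinusoidal endothelium looked at after its values were seen, had 9.81, 10.57 and 8.60 in Lig4mut, against 6.37, 8.99 and 10.14 in WT. Its order of arrays was that of the tested Epas1 probe set but not that of the other Epas1 probe set. The mean over the 8 endothelial markers did not have that order either, as Lig4mut replicate 1 lay above WT replicate 3. The part of endothelial transcripts in the Epas1 level was not tested.

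**Figure D3:**
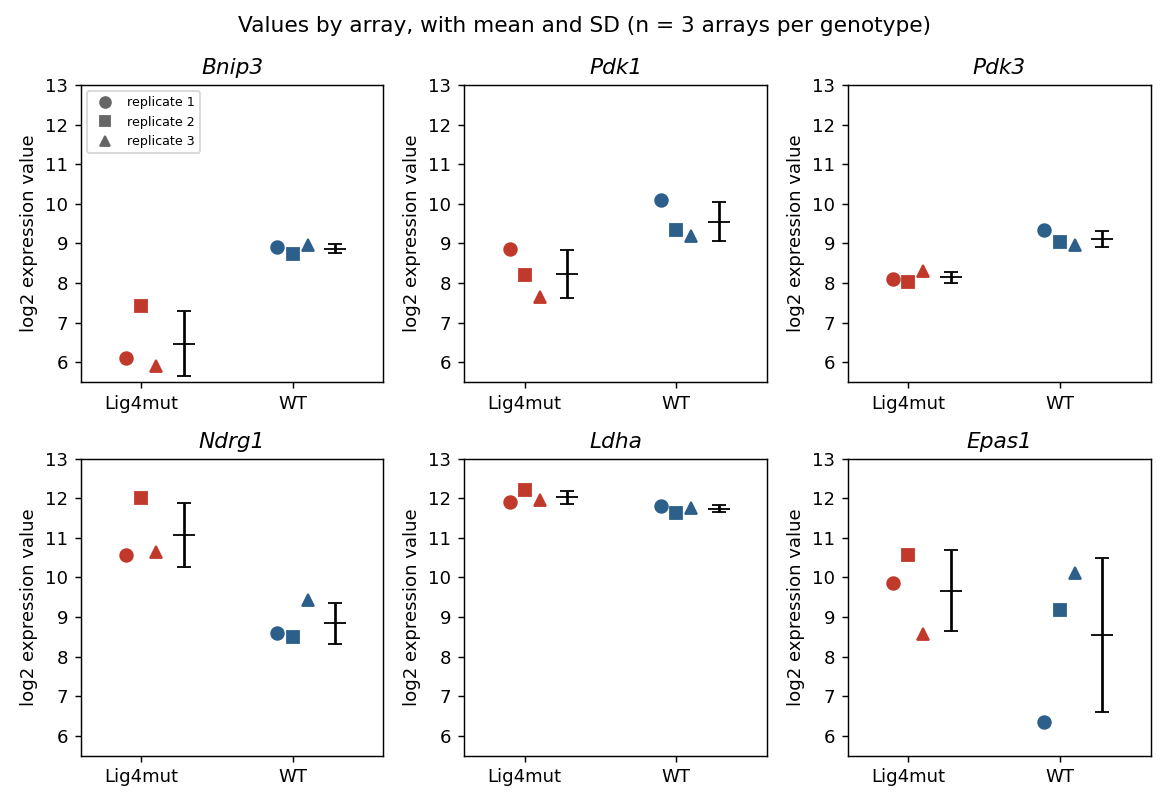
Log2 expression value (y axis) of 6 genes on each array, Lig4mut in red left of WT in blue, with the mean and SD of the 3 arrays beside the points. Bnip3, Pdk1 and Pdk3 sit lower in Lig4mut, Ndrg1 and Ldha higher, and Epas1 overlaps, with WT replicate 1 at 6.36.

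All 3 genes of oxygen sensing and Hif turnover had lower means in Lig4mut HSC with overlapping genotypes. Vhl, which targets Hif alpha for destruction, had 7.21, 8.79 and 7.98 in Lig4mut, against 9.18, 8.51 and 8.42 in WT. Lig4mut replicates 1 and 3 lay below all WT arrays and replicate 2 among them (difference -0.71 ± 0.46 SE, limma, adjusted p = 0.458). Both probe sets had like differences, and the value was -0.31 without Lig4mut replicate 1 and -1.10 without Lig4mut replicate 2 (limma, unadjusted p = 0.0405). Egln1, the main oxygen sensor, differed by -0.34, with -0.02 without Lig4mut replicate 3 and -0.81 without Lig4mut replicate 2 (limma, unadjusted p = 0.0333).

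Egln3, the hydroxylase that Hif itself induces, depended on the probe set. The set with the highest mean had 3.81, 4.01 and 6.35 in Lig4mut, against 5.81, 4.61 and 6.69 in WT (difference -0.98 ± 0.89 SE, limma, adjusted p = 0.589). The other had 3.57, 3.68 and 4.09 in Lig4mut, against 6.57, 5.49 and 7.74 in WT, with all Lig4mut arrays lower (difference -2.82 ± 0.61 SE, limma, unadjusted p = 0.00567, adjusted p = 0.140 over all probe sets). The mean over both was -1.90 (limma, unadjusted p = 0.0392). The Lig4mut values of 3.57 to 4.09 in the second set, and of 3.81 and 4.01 in the first, lie near the floor of 3, though none is on it.

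Among the Hif targets outside glycolysis, Bnip3 and Ndrg1 differed in opposite directions. Bnip3, a mitochondrial protein that triggers mitophagy in low oxygen, had 6.10, 7.41 and 5.90 in Lig4mut, against 8.92, 8.73 and 8.96 in WT. The highest Lig4mut array lay more than 1 log2 unit below the lowest WT array. The difference was -2.40 ± 0.43 SE, 5.28-fold, with an interval of -3.50 to -1.30 (limma, unadjusted p = 0.00227, adjusted p = 0.132). It ranged from -2.87 to -2.12 with any 1 array left out. Bnip3 has 1 probe set, so no second reading of the gene was at hand.

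Ndrg1, a stress-responsive gene of the N-myc downstream regulated family that low oxygen induces, had 10.57, 12.01 and 10.64 in Lig4mut, against 8.61, 8.49 and 9.43 in WT. The genotypes were apart by more than 1 log2 unit, with Lig4mut replicate 2, the array of high granulocyte markers, the highest. The difference was 2.23 ± 0.50 SE, 4.68-fold, with an interval of 0.97 to 3.49 (limma, unadjusted p = 0.00586, adjusted p = 0.141), and 1.76 without Lig4mut replicate 2. All 5 probe sets had higher means in Lig4mut, by 0.78 to 2.23. Lig4mut replicate 2 was the highest array in 2 of the 5. For 3 of the 5 the genotypes did not overlap, and the mean over the 5 was 1.42 (limma, unadjusted p = 0.00189).

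Vegfa, the angiogenic growth factor, had 7.55, 8.21 and 8.33 in Lig4mut, against 7.40, 8.33 and 8.43 in WT. The arrays interleaved (difference -0.03 ± 0.37 SE), although the other probe set was higher in all Lig4mut arrays, by 1.20 ± 0.62 SE (limma, adjusted p = 0.395 over all probe sets). Ankrd37, an ankyrin-repeat gene induced by Hif, had 5.27, 5.52 and 8.29 in Lig4mut, against 5.89, 6.86 and 5.94 in WT. Lig4mut replicate 3 alone stood high, and the difference of 0.13 was -0.83 without it. The 4 tested targets thus held 1 gene at an unadjusted p under 0.05 in each direction and 2 with overlapping genotypes. Of all genes 15.5% were higher and 4.18% lower at that level by limma.

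None of the 72 passed the threshold over all 45037 probe sets (limma, lowest adjusted p = 0.112, for Pdk3), beside 0% of all. At an unadjusted p under 0.05 there were 4 higher and 6 lower, beside 12.1% and 5.57% of all probe sets. That background turned with the scaling: 5440 probe sets were higher and 2508 lower here, 2337 and 3551 with the values as deposited, and 2911 and 2998 with cyclic loess. Differences were positive for 28 of the 72, beside 58% of all. All Lig4mut arrays lay above all WT arrays for 8 probe sets and below them for 8, beside 16.4% and 7.36%. Of 20 genes with several probe sets, 9 had differences of 1 sign throughout and 11 of both signs. Pfkl shows the disagreement within 1 gene. One probe set had 8.70, 8.70 and 8.68 in Lig4mut, against 9.27, 9.10 and 9.18 in WT (difference -0.49 ± 0.09 SE, limma, unadjusted p = 0.00352, adjusted p = 0.126 over all probe sets). Another had 6.15, 6.42 and 6.58 in Lig4mut, against 6.03, 5.63 and 5.80 in WT (0.56 ± 0.17 SE, limma, unadjusted p = 0.0238, adjusted p = 0.212). Both had genotypes that did not overlap. Of the 72, 16 are of the classes _s_at and _x_at, whose probes are shared with other transcripts. Glycolytic genes have many processed copies in the genome, so their values may hold signal of related sequences.

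**Figure D4:**
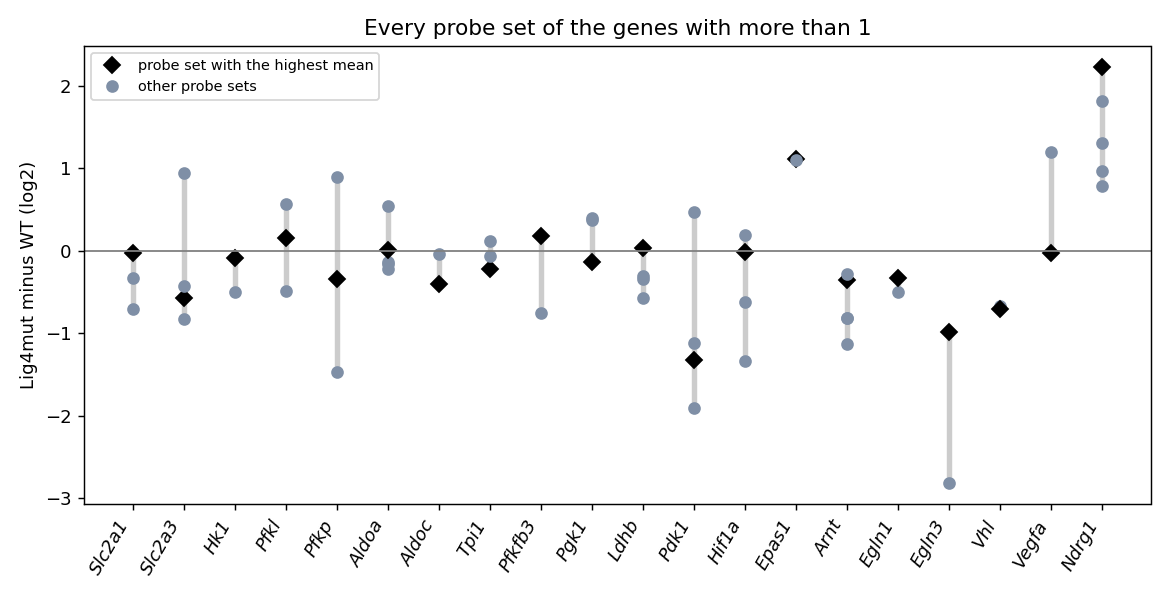
Difference Lig4mut minus WT (y axis, log2) of each probe set of the 20 genes that have more than 1 (x axis); the diamond is the probe set with the highest mean, used in the test, and the grey bar spans the gene's probe sets. All 5 sets of Ndrg1 lie above 0 and both sets of Egln3 below it, while Pfkl, Pfkp, Slc2a3 and 8 others span 0.

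Beyond the 34 genes, further genes of the same pathways were taken from textbook lists. Of 24 measured genes of glycolysis, the pentose phosphate branch and pyruvate entry (29 listed), none passed over all genes by limma. At an unadjusted p under 0.05 there were 2 higher and 2 lower, beside 15.5% and 4.18% of all genes. The median difference was 0.31, beside 0.18 for all genes. Dld, a shared subunit of pyruvate dehydrogenase, had 5.57, 6.34 and 6.22 in Lig4mut, against 7.92, 7.78 and 7.64 in WT. All Lig4mut arrays were lower (difference -1.74 ± 0.25 SE, limma, unadjusted p = 0.000766, adjusted p = 0.125), and its other probe set was at 0.48. Pdp2, a phosphatase that reactivates pyruvate dehydrogenase and so opposes the Pdk kinases, differed by -1.18 ± 0.33 SE, with all Lig4mut arrays lower. On the higher side, Pklr, the pyruvate kinase of liver and red cells, differed by 1.53 ± 0.46 SE with its 3 probe sets all positive. Pgd, of the pentose phosphate branch, differed by 0.50 ± 0.17 SE, with probe sets from -0.38 to 0.52.

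Of 29 measured further genes of the Hif pathway (30 listed), none passed by limma either, and the median difference was 0.21. With an unadjusted p under 0.05 there were 2 higher and 2 lower, beside 15.5% and 4.18% of all genes. Kdm3a, a histone demethylase that Hif induces, had 7.26, 5.13 and 5.62 in Lig4mut, against 9.22, 8.87 and 7.98 in WT. Every Lig4mut array was below every WT array (difference -2.69 ± 0.66 SE, 6.44-fold, limma, unadjusted p = 0.00870, adjusted p = 0.150). Hif3a, whose product can inhibit Hif, differed by -1.65 ± 0.55 SE, with probe sets from -1.65 to 0.22. Pgf, a growth factor related to Vegfa, differed by 0.76 ± 0.18 SE and Gys1, glycogen synthase, by 0.78 ± 0.25 SE, all Lig4mut arrays above WT for both.

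**Figure D5:**
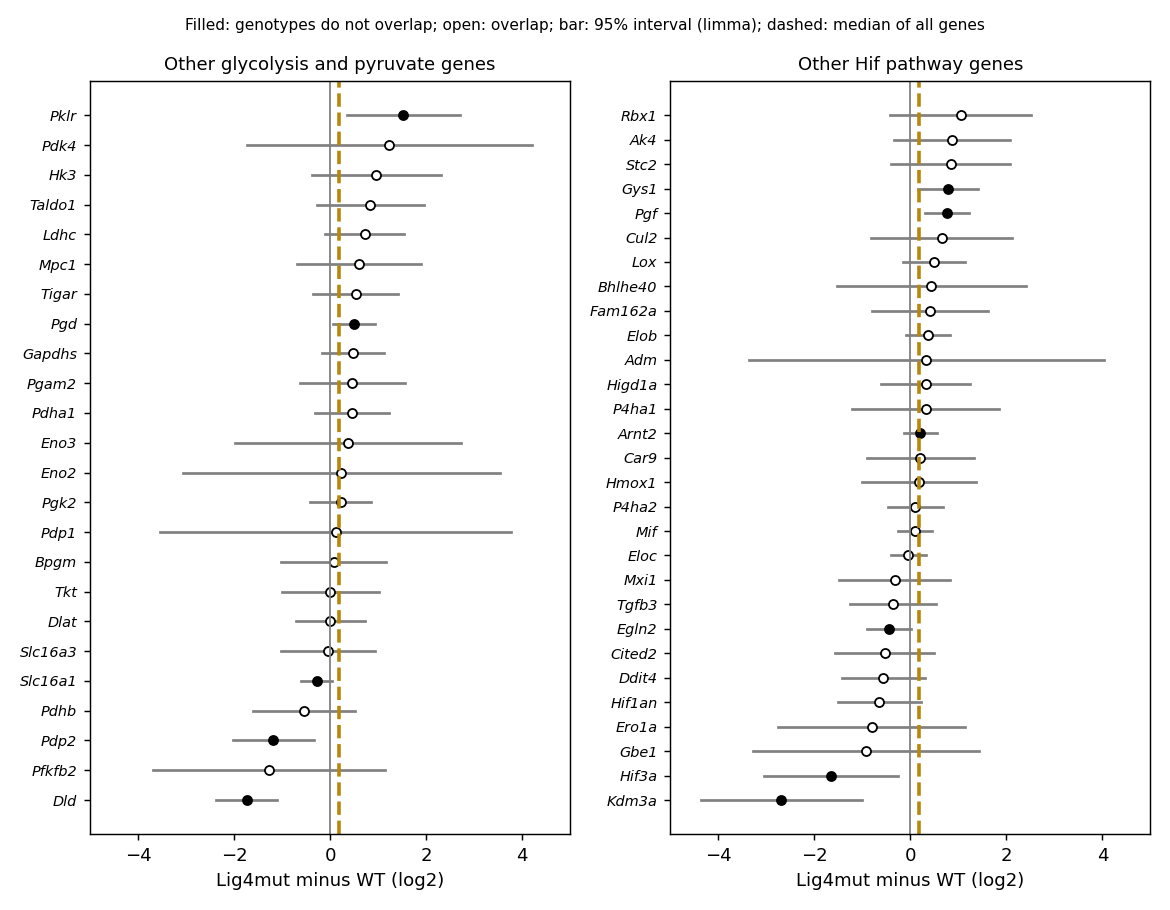
Difference Lig4mut minus WT (x axis, log2) with its 95% interval from limma for 24 further glycolysis and pyruvate genes (left) and 29 further Hif pathway genes (right), sorted by value; filled points mark genotypes that do not overlap and the dashed line is the median of all genes. Dld and Kdm3a lie furthest below 0 on each side, at -1.74 and -2.69.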

How the data were processed

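Expression in sorted HSC was measured on 6 arrays. The deposited log2 values were summarised per probe set by RMA, as the submitters' processing notes name it, without a version. A floor at 3, of unstated origin, lies under the deposited values of every array, and no member value lies on it.

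Gene names come from the platform annotation at GEO, with symbols updated to NCBI's mouse genes of GRCm38.p6. Of 45101 probe sets, 34945 name 1 gene, 932 several, 9160 none, and 64 are controls. Where a gene has several probe sets, the one with the highest mean stands for it, giving 18193 genes. Deposited distributions differ between arrays, so values were quantile normalized, which sets array medians equal. Lig4mut minus WT was fitted by lmFit and eBayes of limma 3.58.1 (R 4.3.3), two-sided. P-values were adjusted by Benjamini-Hochberg across the genes, with 0.05 as threshold, and the fit was repeated over 45037 probe sets. An exact permutation test of 3 arrays against 3 cannot go below p = 0.1, so none was run. The fit was also run on simulated normal values with the same SD of a gene in both genotypes. On the arrays the median SD of a gene was 0.45 in Lig4mut and 0.28 in WT. The simulation therefore does not cover unequal spread.

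Members and lists were chosen with earlier results of these data known. Per-array values are given for members at an unadjusted p under 0.05, for those whose genotypes do not overlap and for 11 genes fixed by role, and for others where their probe sets or a single array are described, chosen after their values were seen. Of each further pathway list, up to 4 genes with the smallest p are named. Alternatives were other scalings, the mean of probe sets, a filter at the 40th percentile of mean level, a variance trend, array weights, the replicate number as a block, a sex covariate and leaving out each array.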

Additional observations from a re-analysis of the deposited data

How the results depend on the processing

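No member gene or probe set passed the adjusted threshold under any alternative (lowest adjusted p of a member gene 0.0863, by limma). The count of members lower at an unadjusted p under 0.05 was 3, and 2 to 4 with 1 array left out. With the mean of probe sets it was 4, as Arnt and Egln3 joined and Pdk1 dropped out. The count higher was 1, with 2 when arrays were centred on their medians (Ldha joined Ndrg1) and 1 to 3 with 1 array left out. The members' median difference of -0.03 was 0.19 with arrays centred on their medians, -0.22 with the mean of probe sets and -0.156 to 0.019 with 1 array left out. Relative to the median of all genes it lay between -0.36 and -0.06 in all settings. Bnip3, Pdk3 and Ndrg1 stayed at an unadjusted p under 0.05 in all 15 alternatives and Pdk1 in 11. Of 30 members, 17 changed sign under at least 1 alternative, none of them among these 4. With the replicate number as a block (replicate block) the counts were 1 higher and 3 lower, with a median of -0.03. Same-numbered arrays correlated at -0.03 to 0.04 in their deviations from the genotype means. Those deviations also carry the effects of single arrays, so the correlations cannot decide whether the numbers pair the arrays. The sample titles give only the replicate number. Egln3 was left out by the filter on dim genes.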
